A study of Mus musculus with 6 samples.

Results

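Kctd14, Tulp2, Rpp25 and Tac2 are 4 genes of unrelated families whose signal was far lower in the urogenital ridge of mouse embryos without Wt1. They are 4 of 13769 genes named on the array and were read on 5 of its 20289 probes, every probe whose platform annotation names 1 of them: 1 each for Kctd14 (probe 4958), Tulp2 (10649) and Tac2 (11094), and 2 for Rpp25 (7473 and 17656). The genes were chosen by the intensities of that same comparison, being far lower on the knockout arrays than on the wild-type arrays, so its values are given for them as a description, without a test.

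The tissue was the urogenital ridge at E11.5, which holds the coelomic epithelium, the early gonad and the mesonephros. The knockout (KO) embryos were Mf1 mice with both copies of Wt1 deleted and the wild-type (WT) embryos were Mf1 mice. Wt1 encodes a zinc finger transcription factor that gonad and kidney need to form, and the deletion affects every cell of the embryo. Each genotype was measured on 3 single-colour arrays, and RNA of 5 pooled embryos at the stage of 11 to 12 tail somites, 4 female and 1 male, is given for every array. Whether the 3 arrays stand for 3 different pools is not stated, and p-values therefore rest on a spread that could be technical. In a dissected tissue, fewer cells of a type and less RNA per cell cannot be told apart.

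Kctd14 encodes a protein of the KCTD family, named for a domain similar to the tetramerisation domain of potassium channels, of which several members serve as substrate adaptors of cullin 3 ubiquitin ligases. Tulp2 encodes a tubby-like protein known from adult testis, and its relative Tulp3 carries membrane receptors into the primary cilium together with the IFT-A complex. Rpp25 encodes an RNA-binding subunit of ribonuclease P, which trims the 5′ end of precursor tRNAs, and of the related ribonuclease MRP. Tac2 encodes the precursor of neurokinin B, a tachykinin peptide that acts on the receptor made from Tacr3 and is known for its part in the hypothalamic control of reproduction. Kctd14 and Tulp2 both lie on chromosome 7, Rpp25 lies on chromosome 9 and Tac2 on chromosome 10.

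As a description, the 250 bases before the transcription start were read from RefSeq (GRCm38.p6) for the 3 genes with an entry, Rpp25, Tulp2 and Tac2. The genes were chosen for being low on the same arrays, and regulation through these sequences was not tested. Tulp2 has 3 annotated windows, of which the first is printed and the second is shifted by a single base. Each is printed 5′ to 3′, with matches to the searched motifs in capitals.
Rpp25 (chr9:57503852-57504101, plus strand): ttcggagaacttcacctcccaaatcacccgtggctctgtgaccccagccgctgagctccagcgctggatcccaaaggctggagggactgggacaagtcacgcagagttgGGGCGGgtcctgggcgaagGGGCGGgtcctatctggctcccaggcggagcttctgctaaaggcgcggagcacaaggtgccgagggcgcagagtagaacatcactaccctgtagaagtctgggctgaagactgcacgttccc
Tulp2 (chr7:45486012-45486261, plus strand): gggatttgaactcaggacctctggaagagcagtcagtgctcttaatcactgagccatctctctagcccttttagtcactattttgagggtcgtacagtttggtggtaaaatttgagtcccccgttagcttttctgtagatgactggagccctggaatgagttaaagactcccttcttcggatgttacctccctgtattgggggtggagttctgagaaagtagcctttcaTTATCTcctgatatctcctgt
Tac2 (chr10:127724228-127724477, plus strand): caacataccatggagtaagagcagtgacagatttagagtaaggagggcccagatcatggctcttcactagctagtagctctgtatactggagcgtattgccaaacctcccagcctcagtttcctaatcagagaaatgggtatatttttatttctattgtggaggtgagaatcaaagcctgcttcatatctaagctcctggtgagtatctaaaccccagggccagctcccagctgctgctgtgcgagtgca
The motifs were searched on both strands: GCGTGGG, a core bound by WT1 and EGR factors, GTGGGAG, another WT1 core, AAGGTCA for NR5A1, AGATAA for GATA factors and GGGCGG, the GC box. The Rpp25 window held GGGCGG at 2 places, beginning 141 and 122 bases before the start, and 32.7% of all 32851 windows of this length hold this motif. The Tulp2 window held AGATAA on the minus strand, beginning 21 bases before the start, a motif present in 9.99% of all windows, and the third Tulp2 window held none of the 5 motifs. The Tac2 window held none of them either. No window of the 3 genes held GCGTGGG, which 4.30% of all windows hold, nor the second WT1 core, held by 8.25%, nor the NR5A1 motif, held by 4.08%. The Rpp25 window was 62.4% G and C, against 46.0% in the printed Tulp2 window and 47.2% in the Tac2 window.

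The deleted gene and the arrays as a whole set the frame for these values. On its brighter probe (2836), Wt1 had deposited intensities of 14.3, 15.7 and 14.2 in KO, against 44.1, 43.6 and 39.1 in WT, and the position of the probe relative to the deletion is not given in the sources used here. Intensities are on the authors' linear scale, on which the median of each array lies between 0.956 and 0.966. Arrays of one genotype correlated at r = 0.974 among KO arrays and at 0.986 among WT arrays (Pearson's r over all probes, none of which is a replicate), and pairs across genotypes at 0.965 to 0.972. Of 15066 tested probes, 41.3% passed adjusted p under 0.05 (limma, Benjamini-Hochberg), 17.2% as lower in KO and 24.1% as higher. A probe was tested if its mean log2 intensity lay above that of an intensity of 0.217, the dim limit. By the fit, 0.325% of tested probes passed and were at least 4-fold lower in KO, among them all 5 probes of the 4 genes, which were picked from this contrast.

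Kctd14 kept a small part of its WT signal in KO. Its intensity was 4.17, 3.38 and 3.18 on the KO arrays and 133, 133 and 117 on the WT arrays. The genotypes were far apart, with the lowest WT array 28.0 times the highest KO array. The means were 3.58 ± 0.520 in KO and 127 ± 9.39 in WT (SD, n = 3 each), so that 2.80% of the WT signal remained, a 35.8-fold decrease with a log2 change of -5.16 ± 0.10 (SE). All 3 KO values were above the dim limit, so the fold was measured on both sides.

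Tulp2 was lowered to the region of the dim limit. The KO arrays had 0.0960, 0.0819 and 0.248, and the WT arrays 1.83, 1.81 and 2.06. On the KO arrays 2 of the 3 values lay under the dim limit, whereas the 3 WT values lay close together. The means were 0.142 ± 0.0918 in KO and 1.90 ± 0.143 in WT (SD, n = 3 each). Because the KO mean was under the limit, the fold is a lower bound, set against the limit or, where it was higher, the probe's own value on that array: Tulp2 was at least 8.36-fold lower in KO. KO array 3, the highest, moved the fitted log2 change most, to -4.42 without it, against -3.92 ± 0.35 (SE) with all arrays.

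Both Rpp25 probes showed the decrease, by different amounts. On probe 7473 the KO arrays had 0.280, 0.467 and 0.308 and the WT arrays 2.60, 2.39 and 2.76. On probe 17656 the KO arrays had 0.413, 0.405 and 0.251 and the WT arrays 1.79, 1.83 and 1.65. No KO array reached a WT array on either probe. All KO values were above the dim limit of 0.217, but the lowest, 0.251, only by little, so these folds may also be affected by dim signal. The decrease was 7.52-fold on probe 7473 (log2 change -2.91 ± 0.18, SE) and 5.05-fold on probe 17656 (-2.34 ± 0.19). The remaining signal was 13.6% and 20.3% of WT. Both probes carry the same RefSeq transcript in the annotation, so the second is a repeat reading of 1 gene on the same arrays and not a further replicate.

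Tac2 was lowered to values under the dim limit. Its KO arrays had 0.0473, 0.137 and 0.172 and its WT arrays 1.06, 1.01 and 0.936. All 3 KO values were under the dim limit, and that of KO array 1 was also under the intensity of 0.0811 to which low values were raised before taking log2. The means were 0.119 ± 0.0642 in KO and 1.0 ± 0.0616 in WT (SD, n = 3 each), and Tac2 was at least 4.61-fold lower. The fitted log2 change was -3.01 ± 0.32 (SE) and depended on the floor, at -2.80 with a higher floor (the 10th percentile of positive values) and -3.27 with a lower one (the 1st).

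**Figure D1:**
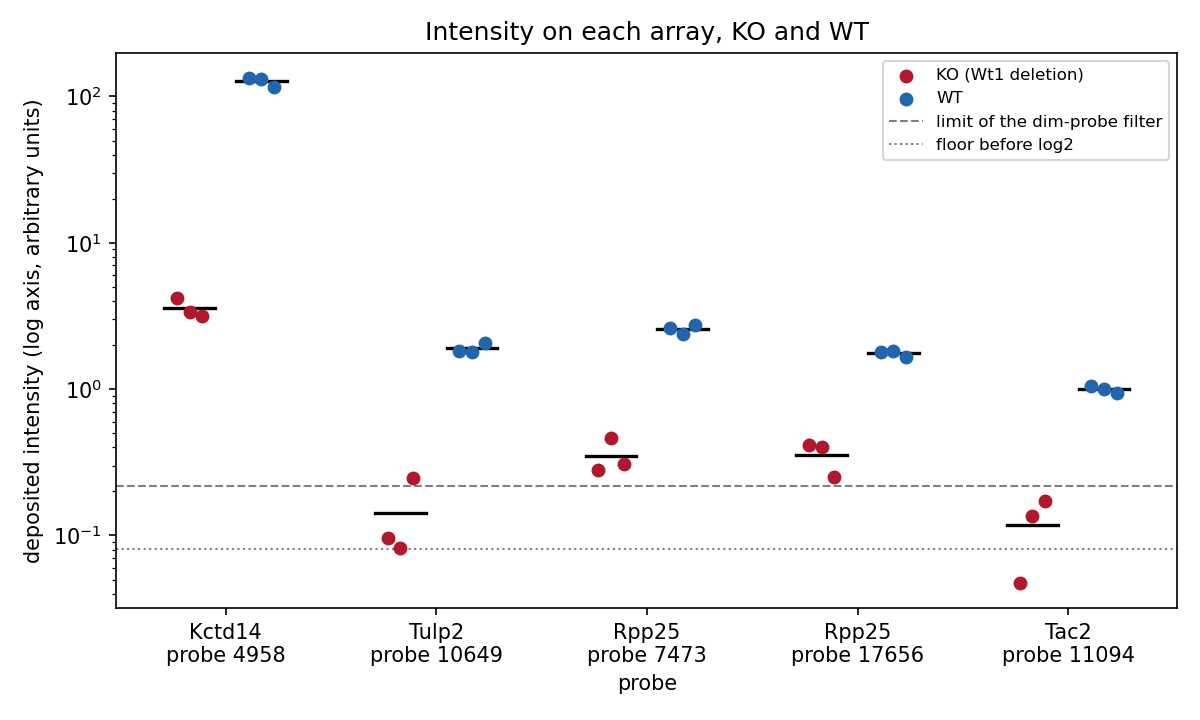
Deposited intensity (log axis, arbitrary units) of the 5 probes of Kctd14, Tulp2, Rpp25 and Tac2 on each KO array (red, left) and WT array (blue, right), with the mean of 3 arrays as a black bar. The genotypes do not overlap on any probe, and all 3 Tac2 and 2 of 3 Tulp2 values in KO lie under the dashed dim limit of 0.217.

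The relative spread between arrays was larger in KO than in WT on all 5 probes. This was not particular to them: over all tested probes the median SD of log2 intensity was 0.153 in KO and 0.0950 in WT. In WT the SD was 5.12% to 7.53% of the mean on all 5 probes. In KO it was 14.6% of the mean for Kctd14, 28.6% and 25.7% for the Rpp25 probes, 54.2% for Tac2 and 64.7% for Tulp2. Tac2 and Tulp2, whose KO means lay under the dim limit, had the largest relative spread. No KO array was the highest or the lowest on all 5 probes: array 1 was highest for Kctd14 and on Rpp25 probe 17656, array 2 on Rpp25 probe 7473, and array 3 for Tulp2 and Tac2.

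Among the 11910 tested probes with a gene symbol, ranked by log2 change from the largest decrease, Kctd14 was second after Amhr2, Tulp2 stood at rank 7, Tac2 at rank 9, Rpp25 at rank 12 with probe 7473 and at rank 25 with probe 17656. Next to Rpp25 in that order were Cst9 at -2.94 and Lgals7 at -2.84. These ranks restate the choice of the genes and, for Tulp2 and Tac2, rest on values below the dim limit.

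**Figure D2:**
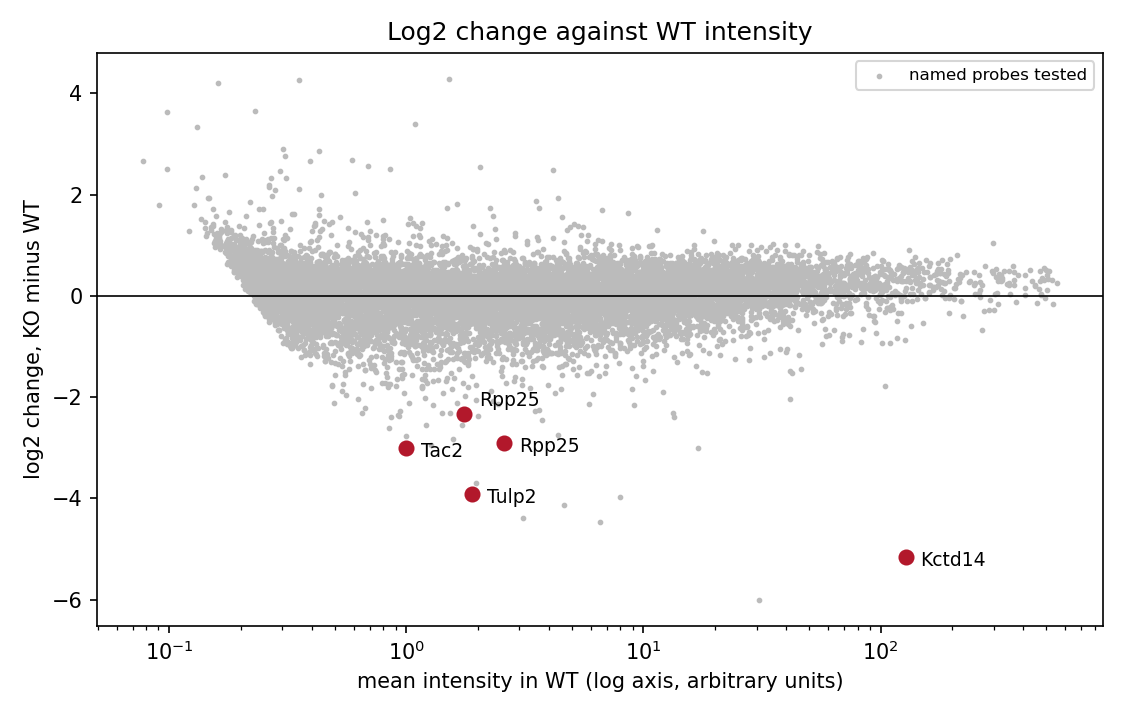
Log2 change, KO minus WT, against mean WT intensity (log axis, arbitrary units) for 11910 tested probes with a gene symbol (grey), with the probes of the 4 genes in red. The red points lie between -5.16 and -2.34, and Amhr2 at -6.00 is the grey point below all of them.

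Other genes of the KCTD family were called in both directions. Of 24 other genes of the family and its closest BTB relatives, 10 had a probe and 9 were tested, of which 2 fell, 5 rose and 2 did not pass, beside 17.2% lower and 24.1% higher of all tested probes. The median log2 change of the 9 was 0.29, against 0.09 over all tested probes. The 2 that fell were Tnfaip1, which encodes an adaptor that directs the GTPase RhoA to cullin 3, and Kctd9. Tnfaip1 had 1.89, 1.69 and 1.86 in KO and 3.66, 3.69 and 3.24 in WT (log2 change -0.96 ± 0.09, SE, adjusted p = 1.17e-05). Kctd9 had 0.492, 0.989 and 0.729 in KO and 1.07, 1.20 and 1.13 in WT (-0.68 ± 0.21, adjusted p = 0.0230). The largest decrease among these 9 tested genes was therefore under 2-fold, and the listed genes without a probe are not covered.

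Among the KCTD genes that rose, Kctd5, whose protein targets G protein beta-gamma subunits for degradation, had 8.54, 9.58 and 8.84 in KO and 5.23, 5.27 and 5.38 in WT (log2 change 0.76 ± 0.07, SE, adjusted p = 1.37e-05). Kctd2, a close relative of Kctd5, averaged 95.3 ± 5.85 in KO and 67.7 ± 4.86 in WT (SD, n = 3 each), and its log2 change of 0.50 was 0.21 under quantile normalization, where it still passed. The gains of Kctd15, Kctd6 and Shkbp1 were between 0.29 and 0.42 on the log2 scale. Kctd15 did not pass under quantile or cyclic loess normalization (limma adjusted p = 0.121 and 0.0959). Without WT array 3, 4 of the family's genes passed in place of 7, while all called probes fell to 5005 from 6221.

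Genes of the cullin 3 machinery that KCTD adaptors can join were called higher more often than lower, in numbers that depended on the scaling. Of 16 tested genes of cullin 3, its partners and other BTB adaptors, 9 rose, 1 fell and 6 did not pass, against 6 higher and 2 lower under quantile normalization, beside the 24.1% of all tested probes that were called higher and the 17.2% called lower in the main setting. Rbx1, the ring finger subunit, averaged 219 ± 25.9 in KO and 157 ± 2.35 in WT, and Nedd8, the ubiquitin-like activator of cullins, 173 ± 13.9 in KO and 125 ± 5.89 in WT (SD, n = 3 each). Their log2 changes of 0.47 ± 0.09 and 0.47 ± 0.08 (SE, limma adjusted p = 0.00144 and 0.000796) became 0.10 and 0.08 under quantile normalization and no longer passed. Klhl22 had a log2 change of 0.47 on its brighter probe, while its other probe was called lower. The adaptor gene Klhl13, by contrast, had 0.645, 0.519 and 0.762 in KO and 1.21, 1.06 and 1.02 in WT, a log2 change of -0.79 ± 0.16 (adjusted p = 0.00251).

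No other tubby family gene was called lower. Of the 4, 3 were tested, 2 rose and 1 did not pass, beside 24.1% higher and 17.2% lower of all tested probes. None was lower at an unadjusted p under 0.05 either (limma), but 3 tested genes are too few for this to set Tulp2 apart. Tulp4 had 34.8, 39.3 and 39.5 in KO and 27.3, 29.9 and 26.2 in WT (log2 change 0.45 ± 0.08, SE, adjusted p = 0.000927), on the brighter of its 2 probes, the other of which did not pass. Tulp3, the cilium adaptor, had 23.4, 25.3 and 25.3 in KO and 21.6, 20.2 and 19.6 in WT (0.27 ± 0.07, adjusted p = 0.0104), a gain that did not pass under quantile normalization (0.11, adjusted p = 0.178). Tulp1, known from photoreceptors, averaged 1.11 ± 0.0580 in KO and 1.0 ± 0.0605 in WT (SD, n = 3 each), and its log2 change of 0.15 did not pass. Tub, the founding gene of the family, was under the dim limit on every array, at 0.157 to 0.204 in KO and 0.0863 to 0.147 in WT.

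Of the IFT-A complex, which works with Tulp3 at the cilium, 4 of 6 genes were tested. Among the 4, 1 fell, 1 rose and 2 did not pass, beside 17.2% lower and 24.1% higher of all tested probes. Ift122 fell to 1.64 ± 0.122 in KO, against 2.31 ± 0.0747 in WT (SD, n = 3 each, adjusted p = 0.00129). Ift140 rose to 5.61 ± 0.753 in KO, against 4.19 ± 0.159 in WT (adjusted p = 0.00611). Wdr19 and Ift43 had log2 changes of -0.19 and -0.11 and did not pass.

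None of the other measured subunits of ribonuclease P and MRP was called lower beside Rpp25. All 7 listed subunit genes with a probe were tested. Of these 2 rose and 5 did not pass, beside 24.1% higher and 17.2% lower of all tested probes. None was lower at an unadjusted p under 0.05 (limma), but 7 genes are too few for this to set Rpp25 apart. Pop5, a protein subunit shared by both enzymes, had 43.4, 48.2 and 46.4 in KO and 31.6, 28.5 and 27.7 in WT (log2 change 0.65 ± 0.08, SE, adjusted p = 5.06e-05). Rpp25l, the gene most closely related to Rpp25, had 44.6, 57.4 and 50.4 in KO and 39.3, 37.1 and 36.4 in WT (0.43 ± 0.09, adjusted p = 0.00287). All KO arrays were above all WT arrays for Rpp25l and Pop5, as at 31.4% of tested probes, but the gain of Rpp25l missed the threshold under quantile normalization (0.19, adjusted p = 0.0658).

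The 5 other subunits had log2 changes between -0.14 and 0.16 and did not pass. Pop7, whose protein pairs with Rpp25 in the enzyme, averaged 2.94 ± 0.127 in KO and 3.13 ± 0.0755 in WT (SD, n = 3 each). Pop4 averaged 30.5 ± 1.14 in KO and 33.6 ± 0.614 in WT, and Rpp30 averaged 12.5 ± 1.44 in KO and 11.1 ± 0.319 in WT. Pop1 and Rpp21 each had a log2 change of 0.06. Leaving out KO array 1 gave 4 called subunit genes in place of 2, while all called probes rose to 7317 from 6221. Under cyclic loess normalization 3 subunit genes were called, 1 of them lower.

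Of 13 other listed genes of tRNA processing 11 were tested. Of these 4 rose, 2 fell and 5 did not pass, not far from the 24.1% higher and 17.2% lower of all tested probes. Elac2, the enzyme that trims the 3′ end of precursor tRNAs, averaged 15.0 ± 0.391 in KO and 10.4 ± 0.812 in WT (SD, n = 3 each, adjusted p = 0.000215). Trnt1, which adds the CCA end, had 0.383, 0.275 and 0.396 in KO and 0.620, 0.800 and 0.632 in WT (log2 change -0.97 ± 0.23, SE, adjusted p = 0.00514). Tsen54, a subunit of the tRNA splicing endonuclease, had a log2 change of 0.35 ± 0.08. The tRNA ligase gene Rtcb had a log2 change of 0.37 ± 0.09, which became 0.08 under quantile normalization and did not pass.

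**Figure D3:**
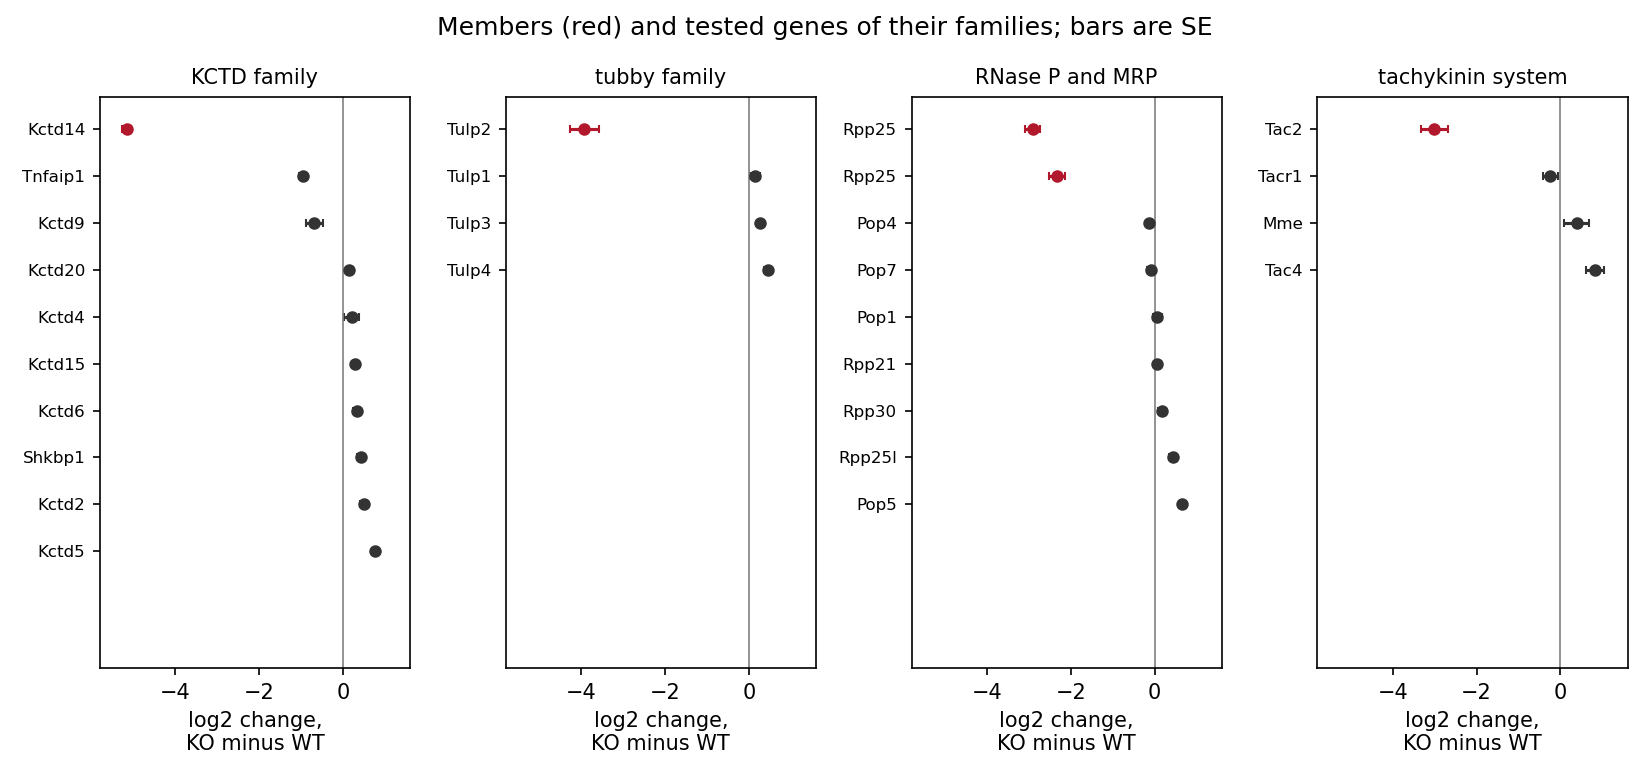
Log2 change, KO minus WT, with its SE for Kctd14, Tulp2, Rpp25 (both probes) and Tac2 in red and for the tested genes of the KCTD family, the tubby family, ribonuclease P and MRP, and the tachykinin system in black. The red points lie between -5.16 and -2.34, and the lowest black point is Tnfaip1 at -0.96.

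The other measured genes of the tachykinin system around Tac2 were dim in this tissue, with intensities below the median of every array. Of 6 listed genes 5 had a probe and 3 were tested. Among the 3, 1 rose and 2 did not pass, beside 24.1% higher and 17.2% lower of all tested probes. Tac4, which encodes hemokinin, had 0.657, 0.782 and 0.908 in KO and 0.547, 0.460 and 0.331 in WT, and rose (log2 change 0.83 ± 0.22, SE, adjusted p = 0.0108). The receptor gene Tacr1 had 0.516 to 0.582 in KO and 0.579 to 0.736 in WT, overlapping, and its log2 change of -0.24 did not pass. Mme, which encodes the tachykinin-degrading peptidase neprilysin, had 0.345 to 0.436 in KO and 0.239 to 0.357 in WT and did not pass either.

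The receptor of neurokinin B and the precursor of substance P were not tested. Tacr3 had 0.170, 0.327 and 0.0963 in KO and 0.177, 0.0755 and 0.133 in WT, and Tac1 had 0.245, 0.260 and 0.124 in KO and 0.164, 0.208 and 0.300 in WT. The genotypes overlapped for both. Of the kisspeptin, dynorphin and gonadotropin-releasing hormone genes that act with neurokinin B in the hypothalamus, Kiss1r alone was bright enough to be tested, at 0.597, 0.671 and 0.959 in KO and 0.607, 0.645 and 0.766 in WT, and it did not pass. Pdyn, Oprk1 and Gnrhr did not reach the dim limit on average.

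Genes next to the 4 on their chromosomes were examined as 3 protein-coding neighbours on each side, from the RefSeq gene table. Of 24 neighbours 17 were tested; 3 fell, 2 rose and 12 did not pass, against the 17.2% and 24.1% of all tested probes given above. No tested neighbour of Kctd14 fell: Ndufc2, a subunit of mitochondrial complex I, had a log2 change of 0.44 ± 0.09 (SE, adjusted p = 0.00212) that became 0.07 under quantile normalization and did not pass. Ints4 and Rsf1 had log2 changes of 0.15 and 0.08 and did not pass.

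Around Tulp2, Plekha4 fell to 0.598 ± 0.114 in KO, against 1.07 ± 0.0754 in WT (SD, n = 3 each, adjusted p = 0.00150), and Ppp1r15a, a stress-induced regulator of protein phosphatase 1, rose to 5.28 ± 0.521 in KO, against 4.05 ± 0.280 in WT (adjusted p = 0.00646). Ftl1, Dhdh and Nucb1 had log2 changes of 0.11, 0.12 and -0.19 and did not pass, but Ftl1 was called lower under quantile normalization (-0.28). Around Rpp25, 1700017B05Rik fell by 0.27 on the log2 scale (adjusted p = 0.0134), while Scamp5 and Cox5a, the immediate neighbours, had log2 changes of -0.13 and -0.19 and did not pass. Ppcdc, Fam219b and Mpi, at 0.14, -0.03 and -0.20, did not pass either.

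The largest change among the neighbours was in Nab2, the third gene before Tac2, which encodes a corepressor of EGR transcription factors. Nab2 had 1.87, 2.12 and 1.61 in KO and 4.59, 4.94 and 4.61 in WT, a 2.54-fold decrease (log2 change -1.34 ± 0.10, SE, adjusted p = 2.65e-06). Its genotypes did not overlap, as at 21.4% of tested probes with all KO arrays below all WT arrays. Myo1a and Gpr182, at -0.56 and -0.42, did not pass, and Rdh1 was under the tested range. Without KO array 1 the number of called neighbours was 10 in place of 5, and that of all called probes also rose, to 7317 from 6221.

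**Figure D4:**
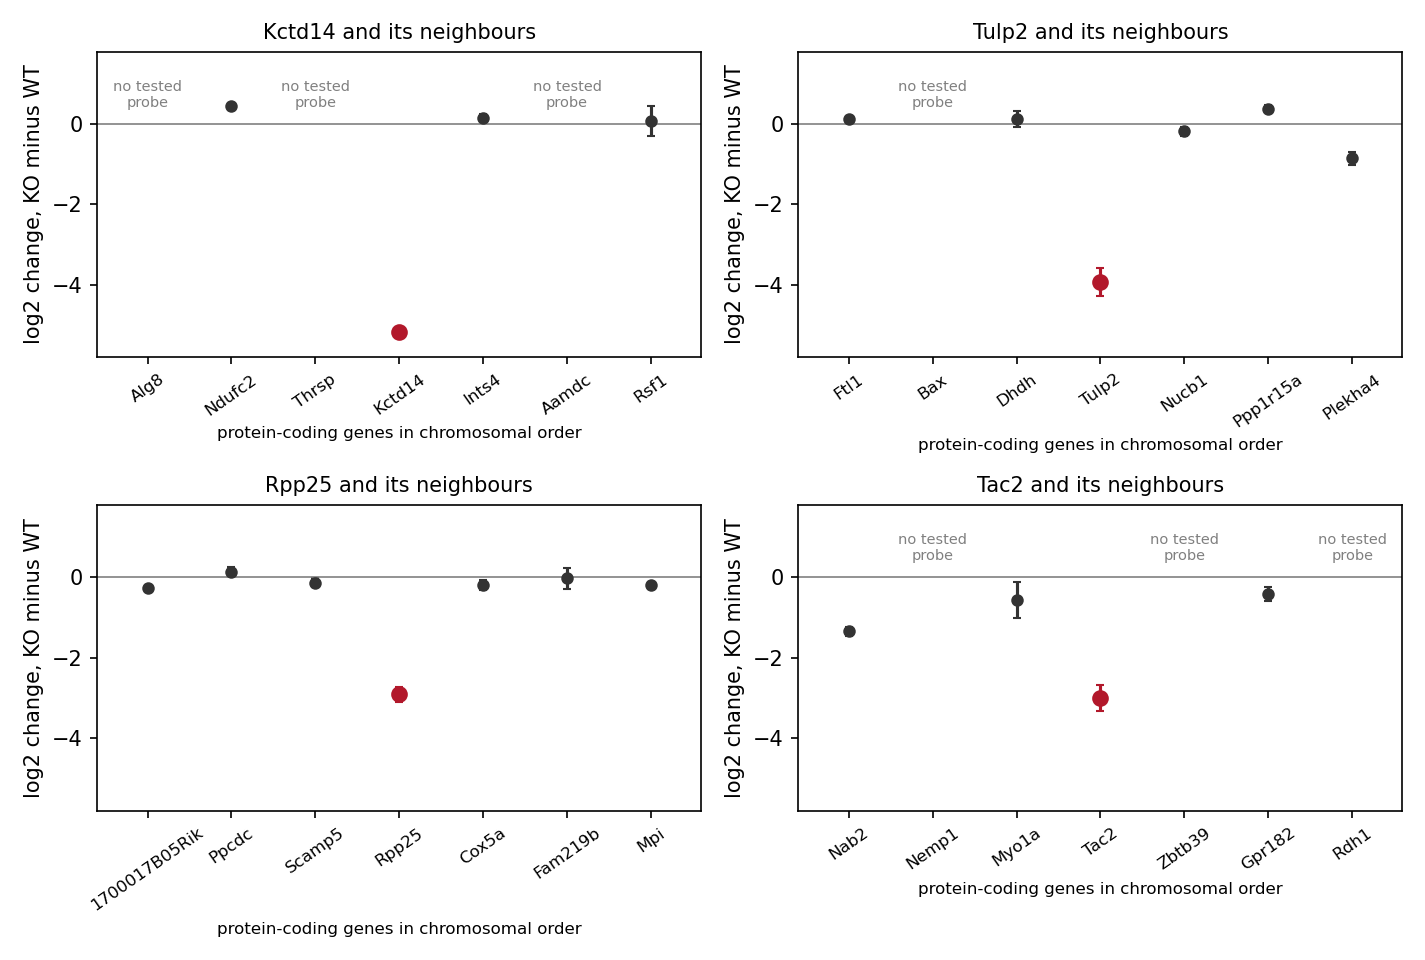
Log2 change, KO minus WT, with its SE for Kctd14, Tulp2, Rpp25 (probe 7473) and Tac2 (red) and the 3 protein-coding genes on each side (black) in chromosomal order. The red points lie between -5.16 and -2.91, and the lowest neighbour is Nab2 at -1.34.

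Genes of similar profile were found by the smallest root mean square difference from each probe over the 6 arrays. Log2 values were set relative to the WT mean. The search covered 6317 probes with a symbol and a WT mean above the median tested probe (2.17), the 4 genes themselves left out. Tulp2, Tac2 and Rpp25 on probe 17656 had WT means below it, so genes of their own level, such as Muc16 and Cst9, were not searched. For Kctd14 the nearest genes searched were Amhr2, Slc9a3r1, Akr1cl and Cd59a, with Amhr2 at 0.60. Amhr2, the receptor gene for anti-Müllerian hormone, averaged 0.480 ± 0.0575 in KO and 30.6 ± 1.77 in WT (SD, n = 3 each). For Tulp2 they were Ptprv, Cd59a, Akr1cl and Slc9a3r1. The KO means of Tulp2 and Akr1cl lay under the dim limit, so no order or distance is read from those. Ptprv, a receptor-type phosphatase gene, averaged 0.516 ± 0.115 in KO and 7.96 ± 0.285 in WT.

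Rpp25 on probe 7473 was nearest to Aldh1a1, Cbln1, Tst and Osr2, at 0.25 to 0.43. The same 4 genes came out for Tac2, but its KO values lay under the dim limit and its profile moved with the floor, so no distance is given. Aldh1a1, a retinaldehyde dehydrogenase gene, averaged 2.13 ± 0.174 in KO and 17.1 ± 0.784 in WT (SD, n = 3 each). Osr2, a zinc finger gene of the intermediate mesoderm, averaged 2.57 ± 0.0730 in KO and 13.4 ± 0.426 in WT. Rpp25 on probe 17656 was nearest to Spink1, Selenow, Cpa1 and Tst, at 0.10, 0.13, 0.16 and 0.21. With 3 arrays in each of 2 genotypes, the measure reflects mainly the size of the genotype difference.

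Markers of the cell types of the ridge were read beside the 4 genes, and their counts stand against 17.2% of all tested probes called lower and 24.1% called higher. On the gonadal primordium list, 6 of 9 tested genes fell and 1 rose, with a median log2 change of -0.63. The summed intensity of its 12 measured genes was 37.3 to 38.1 in KO and 69.7 to 72.2 in WT, and without Amhr2, a gene left out after its values were seen, 36.8 to 37.7 in KO and 39.6 to 41.0 in WT. On the coelomic epithelium list 4 of 11 fell and 2 rose, with a median of 0.07 and a sum of 82.4 to 92.2 in KO and 93.1 to 94.5 in WT. Aldh1a1 on that list had a log2 change of -3.0, in the range of the 4 genes. Muc16 had a fitted log2 change of -3.71 with a KO mean under the dim limit, and was at least 8.55-fold lower in KO. Krt8 and Krt19 also fell, with log2 changes of -1.44 and -0.71 (limma adjusted p = 6.71e-06 and 9.93e-05). Gata5 and Aldh1a2 rose, at 0.37 and 0.49, whereas Krt18 and Bnc1 had 0.07 and 0.20 and did not pass.

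Markers of other cell types were counted in the same way. Of germ cell genes 5 of 9 fell and none rose, with a sum of 86.7 to 91.0 in KO and 159 to 178 in WT, or 56.3 to 60.8 in KO and 62.7 to 66.1 in WT without Ifitm1, also chosen after its values were seen. Of endothelial genes 5 of 7 fell and 1 rose (sum 75.8 to 76.1 in KO and 78.0 to 80.0 in WT). Of neuronal genes 9 of 12 rose and none fell (81.6 to 83.0 in KO and 47.7 to 48.5 in WT), and of skeletal muscle genes 7 of 12 rose and 1 fell (68.2 to 75.9 in KO and 53.4 to 56.3 in WT).

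Of nephric duct and tubule genes 2 of 7 fell and 2 rose, near the shares of all tested probes given above (71.7 to 76.8 in KO and 72.2 to 75.6 in WT). Emx2, with a log2 change of -0.63, fell on this list and is also counted as fallen on the gonadal primordium list. None of 7 tested erythroid genes passed, nor did any at an unadjusted p under 0.05 (limma; 1449 to 1555 in KO and 1458 to 1502 in WT). Since Tulp2 is known from testis, markers of Sertoli cells or spermatids were listed too. Sox9, which drives testis formation, was at 0.130 to 0.293 in KO and 0.155 to 0.200 in WT. The spermatid gene Tnp1 was at 0.138 to 0.311 in KO and 0.154 to 0.227 in WT. Neither was tested. Of 9 tested genes on that list 2 fell, 2 rose and 5 did not pass. Cst9 was at least 5.53-fold lower in KO, with a log2 change of -2.94 in the range of the 4 genes (limma adjusted p = 7.47e-05) and a KO mean under the dim limit. Vnn1 averaged 2.36 ± 0.527 in KO and 5.23 ± 0.195 in WT (SD, n = 3 each, limma adjusted p = 3.12e-05). Sox10, also a neural crest gene, rose to 13.5 ± 0.506 in KO, against 5.84 ± 0.363 in WT (limma adjusted p = 6.33e-07). No marker was at or below the floor on all 6 arrays. The part of any of these cell types in the decrease of Kctd14, Tulp2, Rpp25 and Tac2 was not tested.

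**Figure D5:**
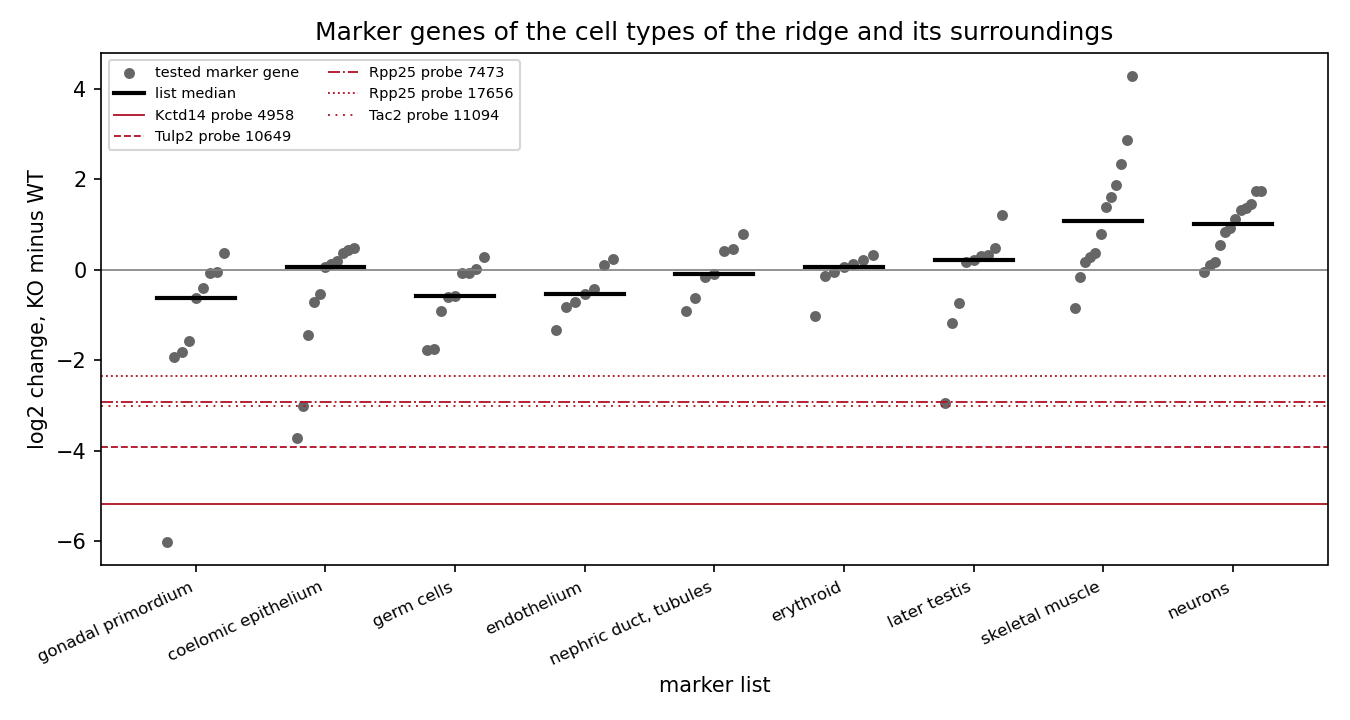
Log2 change, KO minus WT, of tested marker genes (grey points) with the median of each list (black bar) and the 5 probes of the 4 genes as red lines. List medians run from -0.63 for the gonadal primordium to 1.09 for skeletal muscle, and few markers reach the red lines, among them Amhr2 at -6.00, Muc16 at -3.71, Aldh1a1 at -3.0 and Cst9 at -2.94. The KO means of Muc16 and Cst9 lay under the dim limit, so their exact positions are uncertain. The list labelled later testis holds markers of Sertoli cells or spermatids.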

How the data were processed

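Single-colour Amersham CodeLink Mouse 20k arrays were hybridised with biotin-labelled RNA, per the labels' protocols. The deposited values are linear spot intensities, scaled by the authors so that array medians lie near 1. No software, background correction or flagging step is given in the sources used here. Each array held 20077 to 20099 values, 153 to 246 of them at or below 0.

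Intensities under the 5th percentile of positive values (0.0811) were raised to it and log2 was taken. Probes with at least 2 values per genotype and a mean above the 25th percentile of probe means (an intensity of 0.217) were tested, 15066 in all, with limma 3.58.1 in R 4.3.3 (lmFit, eBayes with trend, genotype as the only term) and Benjamini-Hochberg adjustment over all of them, two-sided. The fit was also run on simulated arrays, but without the floor and the dim filter, so that run does not bear on folds near the dim limit.

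Probes were named from GEO's platform annotation (1 symbol for 15120 probes, several for 38, not listed for 5131), checked through Entrez identifiers against RefSeq GRCm38.p6, where 56 found no match. For each list gene the brightest probe measured on all 6 arrays was used. Named were every measured tubby, tachykinin, ribonuclease P and neighbouring gene, up to 4 genes of other lists (the largest changes that passed, or the brightest) and the 4 nearest profiles per probe; names outside this rule were picked with their values known. The 4 genes and all lists were chosen with earlier results of these data known. Alternatives were another normalization, floor, filter or variance prior, a replicate block and leaving out each array. Same-numbered arrays of the genotypes did not deviate together (r = -0.0223 to -0.000742 over 15023 probes).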

Additional observations from a re-analysis of the deposited data

How the results depend on the processing

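The decrease of Kctd14, Tulp2, Rpp25 and Tac2 kept its direction in every alternative run that fitted them. This is no check of the decrease, for which the genes were chosen. No KO array reached a WT array on any of their probes, so leaving out an array could not reverse it. The log2 change of Kctd14 moved by more than the spread between arrays under quantile normalization alone, to -5.34. Leaving out each array gave -5.28 to -5.08 for Kctd14, -4.42 to -3.62 for Tulp2, -3.13 to -2.77 and -2.46 to -2.10 for the Rpp25 probes and -3.27 to -2.71 for Tac2. With only probes above the median probe kept, Tulp2, Rpp25 and Tac2 were not tested, and no tachykinin gene was called (0, against 1). Under quantile and cyclic loess normalization 1 tubby family gene was called in place of 2. Leaving out each array gave 2 to 4 ribonuclease P and MRP genes (4 without KO array 1), 4 to 10 neighbours (10 without KO array 1) and 4 to 7 KCTD family genes (4 without WT array 3). All called probes moved too, from 4795 to 7317 against 6221 in the main setting, with 7317 without KO array 1 and 5005 without WT array 3. Under quantile and cyclic loess normalization the sign changed for Hsd17b10 (-0.0645 and -0.0371, against 0.245 before), Hba-x (-0.27 and -0.26, against 0.12) and Ftl1 (-0.28 and -0.21, against 0.11). The causes were not tested. With the replicate number as a block, 6019 probes were called, against 6221, and the log2 changes of the 4 genes were as before; the arrays share only a number. Folds of Tulp2 and Tac2 are limited by signal near background in KO, and the KO values of Rpp25 lay not far above the dim limit. The 3 arrays per genotype limit the precision.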
